A study of Rattus norvegicus with 29 samples.

Results

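Vitamin E handling in the liver was followed through 8 genes: Ttpa, Afm and Sec14l2, which encode carriers, Scarb1, Abca1 and Pltp, which act in lipid uptake, efflux and transfer, and Cyp4f1 and Cyp4f4, which encode fatty acid ω-hydroxylases. A gene was taken where a transcript cluster, the probe set of 1 gene on the array, carried that gene's symbol and no other. This gave 7 genes with 1 cluster each, among 27342 clusters and 14324 genes with a single symbol. Pltp is not analysed here.

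Male Crl:CD Sprague-Dawley rats, 6 to 7 weeks of age, were given PMCol (2,2,5,7,8-pentamethyl-6-chromanol) or its vehicle, 1% methylcellulose in sterile water, once a day by gavage. PMCol has the chromanol head of vitamin E without the long side chain. After 7 doses, rats were killed on day 8, with 6 animals on vehicle and 6 on 2000 mg/kg. After 28 doses, rats were killed on day 29, with 6 on vehicle, 6 on 200 mg/kg and 5 on 2000 mg/kg. The 200 mg/kg dose at day 8 is not analysed here. The labels give all 5 groups the same strain and name no genetic change.

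Dietary vitamin E reaches the liver in lipoproteins. In hepatocytes the α-tocopherol transfer protein, encoded by Ttpa, picks out α-tocopherol and moves it to the cell surface, from which it leaves on lipoproteins with the help of ABC transporters. Forms of vitamin E that are not retained are hydroxylated at the end of the side chain by cytochrome P450 enzymes of the Cyp4f family, and the side chain is then shortened by β-oxidation. PMCol has no such side chain.

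RNA of the left liver lobe was measured on 1 array per animal. The log2 values are centred on each cluster's median over the 29 animals, so no gene has a level here and genes are compared by their differences between groups. The medians of the arrays lay between -0.023 and 0.029. Precision is limited by the number of arrays, and the labels give no batch. Each difference below is on the log2 scale ± SE, from limma fitted to the 29 animals together. Adjusted p follows Benjamini and Hochberg across 27342 clusters, and a gene is said to have passed where it was below 0.05. In whole liver, fewer cells of a type and less RNA per cell cannot be told apart.

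Under 2000 mg/kg the genes that passed moved in 1 direction. At day 8, 6 of the 7 genes fell and 0 rose, where 18.6% of all clusters were called in either direction and 9.32% were lower. At day 29, 5 of the 7 fell and 0 rose, where 21.6% of all clusters were called and 9.55% were lower. The median difference of the 7 genes was -0.38 at day 8 and -0.23 at day 29, against -0.0049 and 0.0025 over all clusters. At 200 mg/kg, 2 of the 7 fell and 0 rose, where 2.78% of all clusters were called and 1.42% were lower, and the median of the 7 was -0.11. The rounding of the values places all 7 genes among 7768 clusters with stored values of 8 or more. Fitted alone, 3238 of these were called at day 8 and 3545 at day 29 under 2000 mg/kg, and 720 at 200 mg/kg. These are larger shares than over all clusters, and the 7 genes stand out less against them. The counts of the 7 genes called were the same in this fit. Both doses at day 29 share their vehicle animals. A moderated F-test over the 5 groups gave an adjusted p below 0.05 for all 7 genes, and for 31.1% of all clusters.

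**Figure D1:**
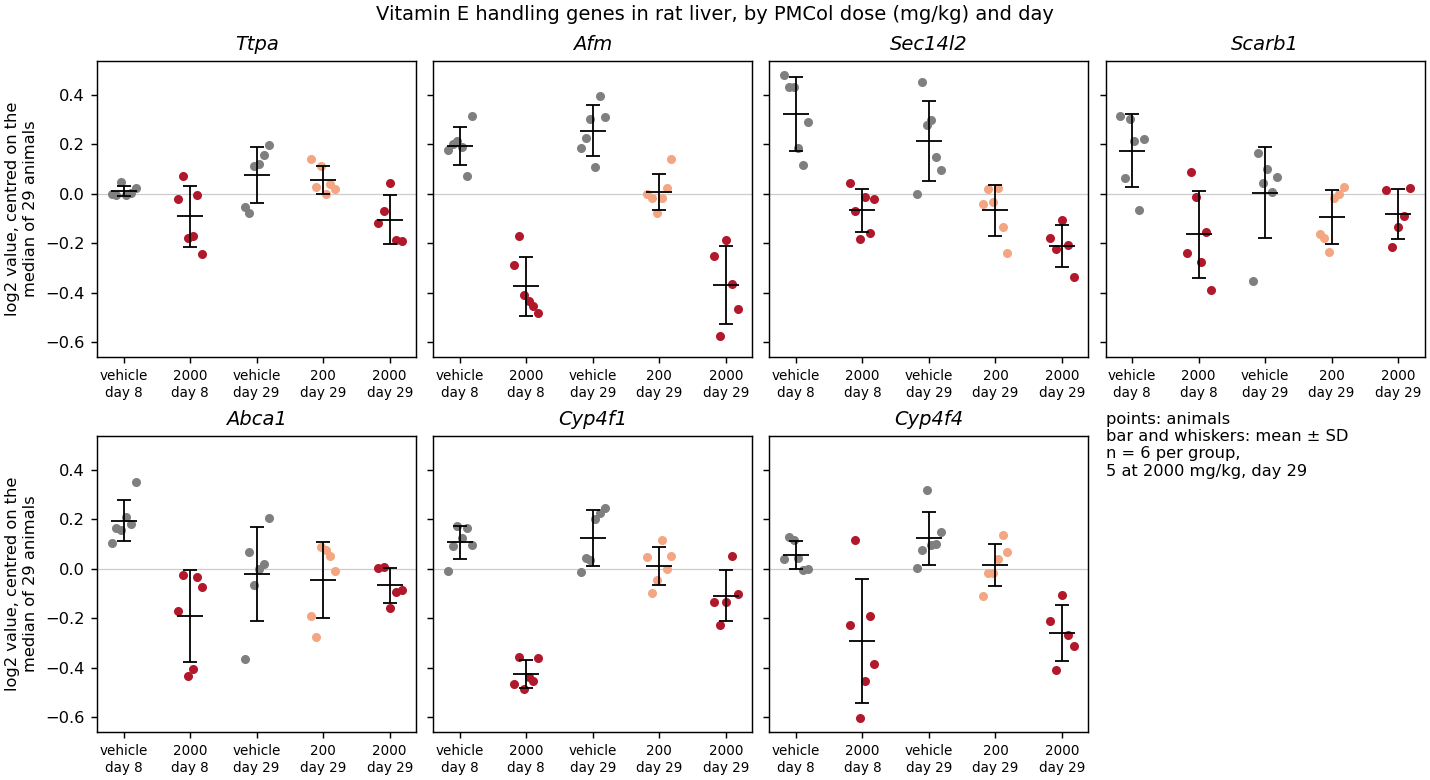
The log2 value of each of 7 vitamin E handling genes, centred on its median over 29 animals, by PMCol dose in mg/kg and day. Points are animals, and bars with whiskers are mean ± SD (n = 6, or 5 at 2000 mg/kg on day 29). Afm and Sec14l2 of both 2000 mg/kg groups lie below all vehicle animals of the same day, and Cyp4f1 does so at day 8 but not at day 29.

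Among the carriers, Ttpa showed the smallest change of the 7 genes at day 8. Its values (cluster 10867815) on vehicle at day 8 ran from -0.0037 to 0.046 with a median of 0.0017. At 2000 mg/kg they ran from -0.24 to 0.072 with a median of -0.10. The ranges overlap, but 5 of 6 treated animals lay below every vehicle animal. The difference was -0.10 ± 0.05 with a 95% interval of -0.21 to 0.0051, and Ttpa did not pass at day 8 (adjusted p = 0.198).

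At day 29, Ttpa on vehicle ran from -0.076 to 0.20 with a median of 0.12. The 5 animals at 2000 mg/kg had -0.12, -0.068, 0.044, -0.19 and -0.19, so that 3 of them lay below all vehicle animals. Ttpa fell by 0.18 ± 0.06, a fold of 0.882 (adjusted p = 0.0187). Leaving out vehicle replicate 6 ended this call (adjusted p = 0.0533), as did leaving out 2000 mg/kg replicate 4 (adjusted p = 0.0600) or 5 (adjusted p = 0.0635) and fitting only the 2 groups compared (adjusted p = 0.0742). The effects at the 2 days differed by -0.08 ± 0.08, which did not pass (adjusted p = 0.696).

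Afm encodes afamin, a plasma glycoprotein of the albumin family that binds vitamin E, and it had the largest fall of the 7 at each time at 2000 mg/kg. On vehicle at day 8, Afm (cluster 10775936) ran from 0.071 to 0.31 with a median of 0.20. Treated animals ran from -0.48 to -0.17 with a median of -0.42, and the groups did not overlap. Afm fell by 0.57 ± 0.06, a fold of 0.675 (adjusted p = 8.88e-08). Of the 2548 clusters called lower in this comparison, 419 had a larger fall than Afm.

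On vehicle at day 29, Afm ran from 0.11 to 0.40 with a median of 0.27. The 5 animals at 2000 mg/kg had -0.25, -0.58, -0.19, -0.36 and -0.47, all below the vehicle animals. Afm fell by 0.62 ± 0.06, a fold of 0.649 (adjusted p = 3.75e-08). After 28 doses the fall was thus within error of that after 7, the effects differing by -0.06 ± 0.09 with a 95% interval of -0.24 to 0.13 (adjusted p = 0.824).

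Sec14l2 encodes supernatant protein factor, also called tocopherol-associated protein, a cytosolic lipid carrier with the same CRAL-TRIO fold as the Ttpa product. On vehicle at day 8, Sec14l2 (cluster 10778043) ran from 0.12 to 0.48 with a median of 0.36. At 2000 mg/kg it ran from -0.18 to 0.041 with a median of -0.046, again with no overlap. Sec14l2 fell by 0.39 ± 0.07, a fold of 0.763 (adjusted p = 0.000131).

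At day 29, Sec14l2 on vehicle ran from 0 to 0.45 with a median of 0.21. The 5 animals at 2000 mg/kg had -0.18, -0.23, -0.11, -0.21 and -0.34, all below the vehicle range. Sec14l2 fell by 0.42 ± 0.07, a fold of 0.746 (adjusted p = 7.54e-05), and its effects at the 2 days differed by -0.03 ± 0.10 (adjusted p = 0.918).

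Scarb1 and Abca1 act at the cell surface. Scarb1 encodes scavenger receptor class B type 1, which takes up lipid, tocopherol included, from high-density lipoprotein. On vehicle at day 8, Scarb1 (cluster 10758137) ran from -0.066 to 0.31 with a median of 0.22, and at 2000 mg/kg from -0.39 to 0.087 with a median of -0.20. All 6 treated animals lay below the vehicle mean, with some overlap of the ranges. Scarb1 fell by 0.34 ± 0.08, a fold of 0.791 (adjusted p = 0.00381).

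At day 29 Scarb1 did not pass. Its vehicle values ran from -0.35 to 0.16 with a median of 0.055, and the 5 animals at 2000 mg/kg had 0.016, -0.22, -0.14, -0.092 and 0.022. The difference was -0.09 ± 0.09 with a 95% interval of -0.26 to 0.093 (adjusted p = 0.553). The lowest vehicle animal, replicate 1, also had the lowest Abca1 value of its group. Without it the Scarb1 difference was -0.16 (adjusted p = 0.175) and that of Abca1 -0.11 (adjusted p = 0.367).

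Abca1 encodes the cholesterol and phospholipid exporter that loads apolipoprotein A-I and also carries tocopherol out of cells. On vehicle at day 8, Abca1 (cluster 10876769) ran from 0.11 to 0.35 with a median of 0.17. Treated animals ran from -0.43 to -0.026 with a median of -0.12. The groups did not overlap, and Abca1 fell by 0.38 ± 0.08, a fold of 0.766 (adjusted p = 0.00106).

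At day 29, Abca1 on vehicle ran from -0.36 to 0.21 with a median of 0.0088, and the 5 animals at 2000 mg/kg had 0.0015, 0.0068, -0.16, -0.095 and -0.085. The treated animals lay inside the vehicle range. The difference was -0.04 ± 0.09 with a 95% interval of -0.22 to 0.13, and Abca1 did not pass (adjusted p = 0.785).

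The loss of the Abca1 and Scarb1 calls between the 2 days did not itself pass a test. The effect at day 29 minus that at day 8 was 0.34 ± 0.12 for Abca1 (adjusted p = 0.175) and 0.25 ± 0.12 for Scarb1 (adjusted p = 0.329). Neither the vehicle groups nor the treated groups of the 2 days differed past the threshold in these genes. Vehicle means of Abca1 were 0.19 ± 0.08 (SD, n = 6) at day 8 and -0.02 ± 0.19 (SD, n = 6) at day 29, a difference of -0.22 ± 0.08 (adjusted p = 0.146), and those at 2000 mg/kg differed by 0.12 ± 0.09 (adjusted p = 0.518). For Scarb1 the vehicle means differed by -0.17 ± 0.08 (adjusted p = 0.275) and the treated means by 0.08 ± 0.09 (adjusted p = 0.699).

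The promoter window of Abca1 is shown because this exporter is a textbook target of the liver X receptors among the 7 genes. It comes from RefSeq, build GRCr8, chr5:72596564-72596723, on the minus strand, and holds the 160 bases of the window that lie outside the gene's annotated span. The capitals mark an E-box, CACGTG, the site of basic helix-loop-helix factors, which begins 149 bases before the annotated start.
Abca1: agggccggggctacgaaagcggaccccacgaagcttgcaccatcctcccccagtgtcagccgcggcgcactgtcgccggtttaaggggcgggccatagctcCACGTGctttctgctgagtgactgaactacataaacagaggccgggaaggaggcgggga

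The E-box was searched for after the sequence had been seen, and 5.59% of 33469 promoter windows of the same table hold it. All motifs were searched on both strands in the 250 bases before the annotated start, in every window and in those of Abca1, Cyp4f1 and Sec14l2, of which the last 2 lie inside the annotated span of their genes and are not shown. The antioxidant response element core TGACNNNGC is in 10.1% of windows, DR4, the direct repeat of the half-site AGGTCA spaced by 4 bases that liver X receptors bind, in 0.00299%, and DR1, spaced by 1 base, in 0.0508%. The exact letters of these 3 motifs are not in the 250 bases of Abca1, Cyp4f1 or Sec14l2. Those of DR4 and DR1 are strict consensus forms, and that of DR4 is in 1 of 33469 windows. Their absence therefore cannot show whether a variant form of either site is present.

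The hydroxylases Cyp4f1 and Cyp4f4 fell at both times at 2000 mg/kg. On vehicle at day 8, Cyp4f1 (cluster 10901055) ran from -0.011 to 0.17 with a median of 0.11. At 2000 mg/kg it ran from -0.49 to -0.36 with a median of -0.45, far below the vehicle range. Cyp4f1 fell by 0.53 ± 0.05, a fold of 0.691 (adjusted p = 6.5e-09).

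At day 29, Cyp4f1 on vehicle ran from -0.014 to 0.25 with a median of 0.12. The 5 animals at 2000 mg/kg had -0.13, -0.23, -0.14, 0.053 and -0.10, and 4 of them lay below all vehicle animals. Cyp4f1 fell by 0.23 ± 0.05, a fold of 0.851 (adjusted p = 0.00165).

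Cyp4f1 was the 1 gene of the 7 whose effect differed between the days, by 0.30 ± 0.07 (adjusted p = 0.0456), where 0.775% of all clusters were called. Its vehicle means were 0.11 ± 0.07 (SD, n = 6) at day 8 and 0.12 ± 0.11 (SD, n = 6) at day 29. Its means at 2000 mg/kg were -0.43 ± 0.06 (SD, n = 6) and -0.11 ± 0.10 (SD, n = 5). As in 3.43% of all clusters, these treated groups did not overlap. Between them Cyp4f1 was higher at day 29 by 0.32 ± 0.05 (adjusted p = 0.00106), where 3.07% of all clusters were called. The call on the effects lay close to the threshold: it was lost in 16 of 23 fits without 1 animal, with adjusted p between 0.0358 and 0.0769 over all 23.

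Cyp4f4 (cluster 10894200) on vehicle at day 8 ran from -0.0038 to 0.13 with a median of 0.041, and at 2000 mg/kg from -0.60 to 0.12 with a median of -0.31. One treated animal, replicate 2, lay inside the vehicle range and the other 5 lay below it. The SD at 2000 mg/kg was 0.25 against 0.06 on vehicle (n = 6 each). Cyp4f4 fell by 0.34 ± 0.08, a fold of 0.787 (adjusted p = 0.00195).

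At day 29, Cyp4f4 on vehicle ran from 0.0013 to 0.32 with a median of 0.10. The 5 animals at 2000 mg/kg had -0.21, -0.41, -0.11, -0.27 and -0.31, all below the vehicle animals. Cyp4f4 fell by 0.39 ± 0.08, a fold of 0.766 (adjusted p = 0.000907), and its effects at the 2 days differed by -0.04 ± 0.11 (adjusted p = 0.91).

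Counted by groups that do not overlap, 4 of the 7 genes lay wholly below vehicle at day 8 (Afm, Sec14l2, Abca1 and Cyp4f1) and 3 of the 7 at day 29 (Afm, Sec14l2 and Cyp4f4). The share of all clusters with groups that did not overlap, in either direction, was 11% at day 8 and 11.4% at day 29. Between the vehicle groups of the 2 days, 0 of the 7 genes passed in the limma fit, where 2.73% of all clusters were called. At an unadjusted p below 0.05 that count was 1, Abca1.

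**Figure D2:**
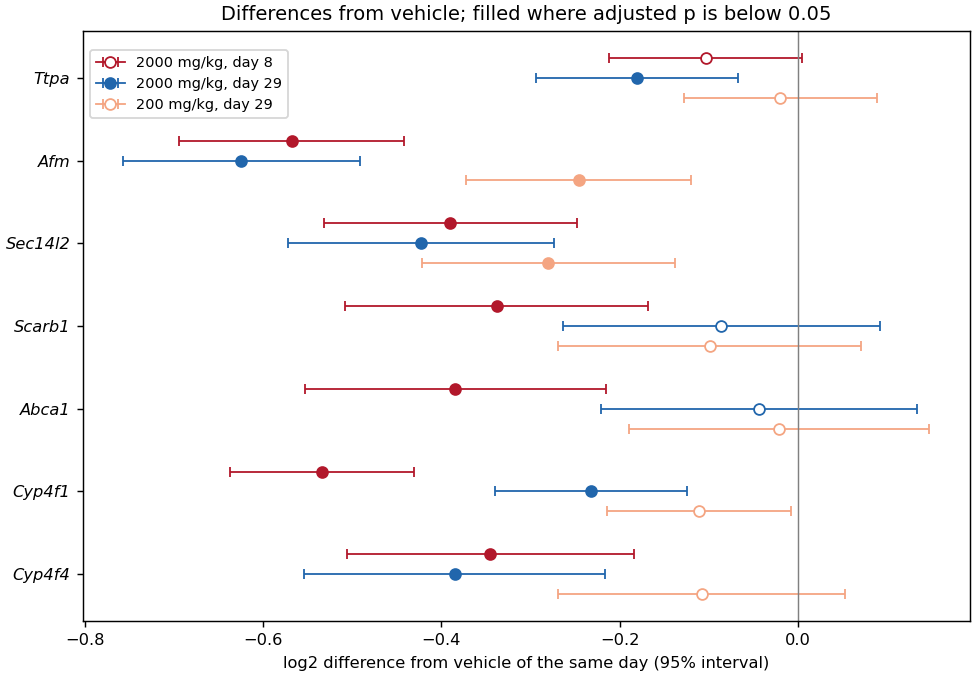
Log2 difference from the vehicle animals of the same day, with its 95% interval, for 7 genes under 3 PMCol treatments. Filled points passed at adjusted p below 0.05. All 21 points lie below 0, and the intervals include 0 for Ttpa at day 8, for Scarb1 and Abca1 at both doses on day 29, and for Ttpa and Cyp4f4 at 200 mg/kg.

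The lower dose was compared with vehicle at day 29, after 28 doses. At 200 mg/kg, Afm ran from -0.079 to 0.14 with a median of -0.0082, and 5 of 6 animals lay below all vehicle animals of that day. Afm fell by 0.25 ± 0.06, a fold of 0.843 (adjusted p = 0.0254). Sec14l2 ran from -0.24 to 0.022 with a median of -0.037, with 4 of 6 animals below all on vehicle, and fell by 0.28 ± 0.07, a fold of 0.824 (adjusted p = 0.0234).

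Both calls at 200 mg/kg lay near the threshold. That of Afm was lost without vehicle replicate 3, 5 or 6 or without 200 mg/kg replicate 3, 4 or 5, with adjusted p up to 0.0704. That of Sec14l2 was lost without vehicle replicate 2, 3 or 4 or without 200 mg/kg replicate 5 or 6, with adjusted p up to 0.0785, and with only the 2 groups compared (adjusted p = 0.10).

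The other 5 genes did not pass at 200 mg/kg. Cyp4f1 ran from -0.10 to 0.12, and its difference was -0.11 ± 0.05 with a 95% interval of -0.21 to -0.0077 (adjusted p = 0.313). Cyp4f4 ran from -0.11 to 0.13, with a difference of -0.11 ± 0.08 (adjusted p = 0.632). Scarb1 ran from -0.24 to 0.027, with a difference of -0.10 ± 0.08 (adjusted p = 0.701). Abca1, from -0.28 to 0.087, and Ttpa, from -0.0001 to 0.14, had differences of -0.02 ± 0.08 (adjusted p = 0.962) and -0.02 ± 0.05 (adjusted p = 0.942). At this dose 0 of the 7 genes lay wholly below vehicle, where 1.51% of all clusters did not overlap.

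The 2 doses were then set against each other at day 29. Afm at 2000 mg/kg lay below all animals at 200 mg/kg and fell by a further 0.38 ± 0.06 (adjusted p = 0.00022). Cyp4f4 was lower by a difference of -0.28 ± 0.08 (adjusted p = 0.0297), with 4 of 5 animals below all at 200 mg/kg. Among all clusters 9.89% were called and 3.84% were lower, and in 6.12% the 2 dose groups did not overlap. The Cyp4f4 call was lost without 200 mg/kg replicate 5 or 2000 mg/kg replicate 2, 4 or 5, with adjusted p up to 0.0912.

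Sec14l2 did not pass between the doses, with a difference of -0.14 ± 0.07 and a 95% interval of -0.29 to 0.0059 (adjusted p = 0.246). Its difference from vehicle at 200 mg/kg was 66.1% of that at 2000 mg/kg, and that of Afm was 39.4%. Ttpa had a difference between the doses of -0.16 ± 0.06 (adjusted p = 0.0652), and 4 of 5 animals at 2000 mg/kg lay below all at 200 mg/kg. Cyp4f1, Abca1 and Scarb1 had -0.12 ± 0.05 (adjusted p = 0.16), -0.02 ± 0.09 (0.918) and 0.01 ± 0.09 (0.953). The group means ran in the order vehicle, 200 and 2000 mg/kg, downward, in 6 of the 7 genes, all but Scarb1, as in 25% of all clusters.

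Over all 5 groups, the means of Afm, Cyp4f1 and Cyp4f4 had the same order at the top: vehicle at day 29, vehicle at day 8 and 200 mg/kg at day 29, with no neighbouring pair among these passing. For Afm and Cyp4f4 the step to the next group, 2000 mg/kg at day 29, passed, while that between the 2000 mg/kg groups of the 2 days did not. For Cyp4f1 the 1 step that passed was between the 2000 mg/kg groups of day 29 and day 8. The pair of 200 mg/kg at day 29 and vehicle at day 8 differed in 5.18% of all clusters. The order of Sec14l2 was vehicle at day 8, vehicle at day 29, 2000 mg/kg at day 8, 200 mg/kg at day 29 and 2000 mg/kg at day 29, and the 1 step that passed was that from vehicle to treated (adjusted p = 0.00289), where 25.6% of all clusters were called, against 16.8% between 2000 mg/kg at day 8 and 200 mg/kg at day 29. For Ttpa, Scarb1 and Abca1 no neighbouring pair in the order of means passed.

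The wider pathway was described with 61 genes in 8 lists, of which 48 were measured. At 2000 mg/kg, 8 of the 48 rose and 20 fell at day 8, and 5 rose and 14 fell at day 29. Their medians were -0.11 and -0.10, against -0.0049 and 0.0025 over all clusters. Of all clusters, 18.6% were called and 9.32% were lower at day 8, and 21.6% and 9.55% at day 29. At 200 mg/kg 1 rose, Abcc3, and 2 fell, Lipc and Amacr, where 2.78% of all clusters were called and 1.42% were lower. These shares also hold for the list and marker counts below in the same comparisons, and some of those counts lie near or under them. Fitted alone, the 7768 clusters with stored values of 8 or more had 3238 calls at day 8 and 3545 at day 29. These, at 2000 mg/kg, are larger shares, and the 48 genes stand out less against them.

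Relatives of the carriers and of the hydroxylases were counted first. Of 8 CRAL-TRIO lipid carriers, Sec14l1 (-0.19 ± 0.06, adjusted p = 0.0172) and Sec14l4 (-0.31 ± 0.10, adjusted p = 0.0216) fell at day 8, and Sec14l1 alone fell at day 29 (-0.18 ± 0.06, adjusted p = 0.0248). Without 1 animal, 1 in place of 2 of these carriers passed at day 8 in 5 of 12 fits (without vehicle replicate 3 or 4 or 2000 mg/kg replicate 1, 4 or 6), and 0 passed at day 29 without vehicle replicate 2 or 2000 mg/kg replicate 3 or 4. Sec14l3 and Sec14l4 lie near Sec14l2 on the chromosome, and Sec14l3 had 0.01 ± 0.04 at day 8 (adjusted p = 0.893). Of 4 other Cyp4f genes measured, Cyp4f6, the next gene to Cyp4f1, fell at day 8 (-0.24 ± 0.07, adjusted p = 0.0119), and 0 passed at day 29, or 1 without vehicle replicate 1 or 2000 mg/kg replicate 4. Cyp4f40, next to Cyp4f4, had -0.04 ± 0.04 at day 8 (adjusted p = 0.612). Close Cyp4f paralogs can share probe matches, so their values may not be independent.

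Afm lies between Albfm1, not analysed here, and Afp, with Alb the next gene after Afp. Alb, encoding albumin, had 0.01 ± 0.04 at day 8 (adjusted p = 0.902) and -0.02 ± 0.04 at day 29 (adjusted p = 0.799). Afp, encoding α-fetoprotein, fell at day 8 (-0.24 ± 0.08, adjusted p = 0.0248), as did Gc, the vitamin D-binding protein (-0.10 ± 0.03, adjusted p = 0.0298), and neither passed at day 29. Both calls held in 4 of 12 fits without 1 animal. Of the 2 calls, 1 held without vehicle replicate 3 or 5 or 2000 mg/kg replicate 1, 4 or 5, and 0 held without vehicle replicate 6 or 2000 mg/kg replicate 3 or 6. With only the groups compared, or with the macrophage marker mean as a covariate, 0 held.

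Among 8 measured genes of lipoprotein and lipid uptake, 2 rose and 4 fell at day 8. Lipc, encoding hepatic lipase, fell by 1.12 ± 0.07 (adjusted p = 2.85e-12), and Cd36, encoding a fatty acid translocase, rose by 1.90 ± 0.22 (adjusted p = 3.08e-07). Lrp1, encoding a remnant receptor, fell by 0.53 ± 0.07 (adjusted p = 3.8e-06), and Npc1, which exports cholesterol from lysosomes, by 0.50 ± 0.13 (adjusted p = 0.0062). At day 29, 1 rose and 3 fell: Cd36 rose by 1.46 ± 0.23 (adjusted p = 2.73e-05), and Lipc, Lpl and Lrp1 fell by 0.95 ± 0.07, 0.86 ± 0.21 and 0.50 ± 0.08. At 200 mg/kg Lipc fell by 0.33 ± 0.07 (adjusted p = 0.00761).

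In the list of 5 measured genes of lipoprotein assembly and remodelling, Mttp, which loads lipid onto apolipoprotein B, rose at both times at 2000 mg/kg (0.39 ± 0.05, adjusted p = 5.22e-06, and 0.49 ± 0.06, adjusted p = 2.5e-07). Apoa4 fell by 1.02 ± 0.23 and 1.61 ± 0.24 (adjusted p = 0.00179 and 1.34e-05). Lcat, encoding the plasma enzyme that esterifies cholesterol, fell at day 8 (-0.34 ± 0.09, adjusted p = 0.00925), and Apoe fell at day 29 (-0.14 ± 0.05, adjusted p = 0.034).

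Of 6 measured efflux pumps, 2 rose and 2 fell at day 8, and 2 rose and 1 fell at day 29. Abcb4, the canalicular phospholipid pump, fell by 0.47 ± 0.09 at day 8 and by 0.68 ± 0.09 at day 29 (adjusted p = 0.000161 and 1.87e-06). Abcg1, which like Abca1 exports cellular cholesterol, fell at day 8 (-0.51 ± 0.12, adjusted p = 0.00194) and had -0.18 ± 0.12 at day 29 (adjusted p = 0.334). Abcb1a, a drug efflux pump, rose by 0.82 ± 0.13 and 1.12 ± 0.14 (adjusted p = 3.07e-05 and 6.32e-07). The conjugate pump Abcc3 rose by 3.54 ± 0.13 at day 8, and by 4.40 ± 0.14 and 3.11 ± 0.13 at 2000 and 200 mg/kg on day 29.

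Of 9 measured genes of the liver X receptors, PXR and their targets, 1 rose and 5 fell at day 8, and 0 rose and 2 fell at day 29. The 1 that rose was Nr1h2, the liver X receptor β gene. Nr1h3, the liver X receptor α gene, fell at day 8 (-0.34 ± 0.07, adjusted p = 0.00119) and had -0.13 ± 0.08 at day 29 (adjusted p = 0.254). Rxra, its dimer partner, fell at both times (-0.23 ± 0.04 and -0.24 ± 0.05, adjusted p = 0.000276 and 0.000192). Nr1i2, encoding PXR, a receptor for foreign compounds, fell by 0.20 ± 0.06 and 0.27 ± 0.06 (adjusted p = 0.0175 and 0.00176). Mylip, which marks lipoprotein receptors for degradation, fell at day 8 (-0.25 ± 0.05, adjusted p = 0.00047).

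Downstream of the hydroxylases, 8 genes of side-chain shortening were measured. At day 8, 2 rose and 3 fell, and at day 29, 1 rose and 5 fell. Acox2, a branched-chain acyl-CoA oxidase, fell by 0.50 ± 0.08 and 0.31 ± 0.09 (adjusted p = 5.53e-05 and 0.0112). Acox3 fell by 0.35 ± 0.05 and 0.25 ± 0.05 (adjusted p = 1.96e-06 and 0.000369). Amacr, the α-methylacyl-CoA racemase, fell by 0.35 ± 0.10 and 0.52 ± 0.10 (adjusted p = 0.00915 and 0.000283), and by 0.35 ± 0.10 at 200 mg/kg (adjusted p = 0.0413). The call of Amacr at 200 mg/kg held in 3 of 12 fits without 1 animal. It was lost without vehicle replicate 1, 2, 4 or 5, without 200 mg/kg replicate 1, 3, 4, 5 or 6, and with array weights. Scp2, the sterol carrier protein with a peroxisomal thiolase form, fell at day 29 (-0.30 ± 0.06, adjusted p = 0.000344). Ehhadh, a peroxisomal bifunctional enzyme, rose by 0.58 ± 0.08 and 0.53 ± 0.08 (adjusted p = 3.82e-06 and 2.87e-05). The other gene that rose at day 8 was Hsd17b4, which did not pass at day 29.

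**Figure D3:**
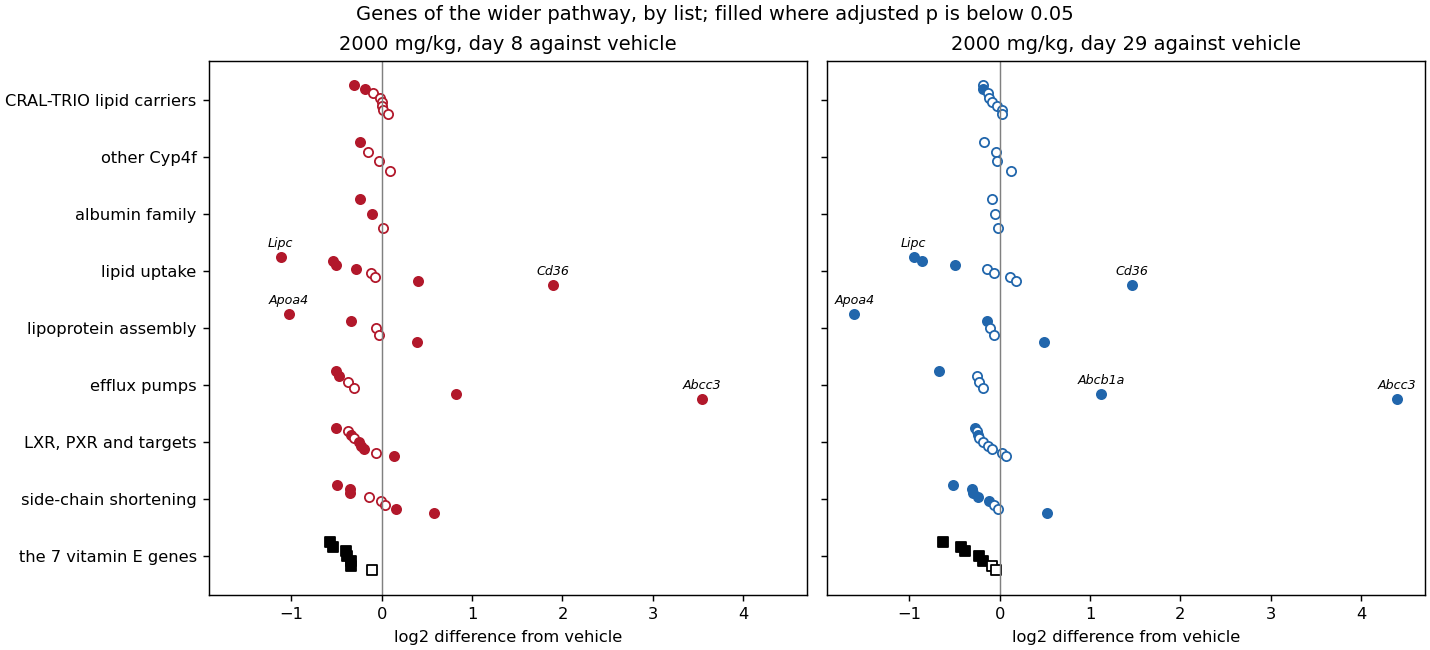
Log2 difference from vehicle at 2000 mg/kg for the 48 measured genes of 8 related lists and for the 7 vitamin E genes (squares), at day 8 and at day 29. Filled symbols passed at adjusted p below 0.05. The vitamin E genes lie between -0.62 and -0.04, inside the span of the related genes from Apoa4 at -1.61 to Abcc3 at 4.40.

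Markers of liver cell types moved with some of these comparisons. The mean of 8 Kupffer cell and macrophage markers was 0.87 ± 0.33 (SD, n = 6, range 0.40 to 1.30) on vehicle at day 8 and -0.11 ± 0.27 (SD, n = 6, range -0.63 to 0.10) at 2000 mg/kg. All 8 of these markers were lower at day 8 (adjusted p below 0.05), and all 8 were also lower in vehicle animals of day 29 than of day 8. At day 29 the marker mean was -0.19 ± 0.53 on vehicle (SD, n = 6), -0.18 ± 0.43 at 200 mg/kg (SD, n = 6) and -0.22 ± 0.58 at 2000 mg/kg (SD, n = 5), and 0 of the 8 markers passed. Vehicle animals at day 8, which were high in these markers, also had the highest group means of Abca1, Scarb1 and Sec14l2.

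With the macrophage marker mean as a covariate, added after the data were seen, 5 of the 7 genes passed at day 8. The marker means of the day 8 groups did not overlap, at 0.40 to 1.30 on vehicle and -0.63 to 0.10 at 2000 mg/kg. Covariate and treatment are thus hard to tell apart at day 8, and a lost call cannot be assigned to either. Scarb1 lost its call, with a difference of -0.21 (adjusted p = 0.192). Abca1 had -0.31 (adjusted p = 0.0461), Cyp4f4 -0.30 (adjusted p = 0.0463), Sec14l2 -0.36 (adjusted p = 0.00644), Afm -0.51 (adjusted p = 4.06e-05) and Cyp4f1 -0.52 (adjusted p = 2.19e-06). The Cyp4f1 difference between the days was 0.29 with this covariate and no longer passed (adjusted p = 0.198). Of the related genes 15 passed at day 8, against 28 without the covariate. The counts fell from 6 to 3 in both the uptake list and the receptor list, and the calls of Sec14l1, Sec14l4 and Cyp4f6 were among those lost.

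The mean of 8 hepatocyte markers was 0.0021 ± 0.08 on vehicle and -0.19 ± 0.08 at 2000 mg/kg at day 8 (SD, n = 6 each). At day 29 it was 0.11 ± 0.04 on vehicle (SD, n = 6), 0.07 ± 0.03 at 200 mg/kg (SD, n = 6) and -0.11 ± 0.04 at 2000 mg/kg (SD, n = 5). Of the 8 hepatocyte markers, 5 were lower and 0 higher at day 8, and 4 were lower and 0 higher at day 29 at 2000 mg/kg. One of them, Alb, is also in the albumin family list. The part of this shift in the falls of the 7 genes was not tested. Stellate cell markers were lower at day 29, with 6 of 7 passing, and their mean was 0.29 ± 0.20 on vehicle (SD, n = 6) and -0.43 ± 0.09 at 2000 mg/kg (SD, n = 5). At day 8, 3 of these 7 were lower and 1 was higher at 2000 mg/kg. Of 3 erythrocyte markers 2, and of 5 T, B and NK cell markers 3, were lower at day 8. The erythrocyte marker mean was 0.71 ± 0.26 (SD, n = 6) on vehicle at day 8 and between -0.15 and -0.0030 in the other groups. Like the macrophage mean it was thus highest on vehicle at day 8, and it was not used as a covariate. Of 2 bile duct markers, Epcam was higher at both times at 2000 mg/kg, and of 2 endothelial markers 0 passed at either time. The values are centred, so no marker can be called absent.

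**Figure D4:**
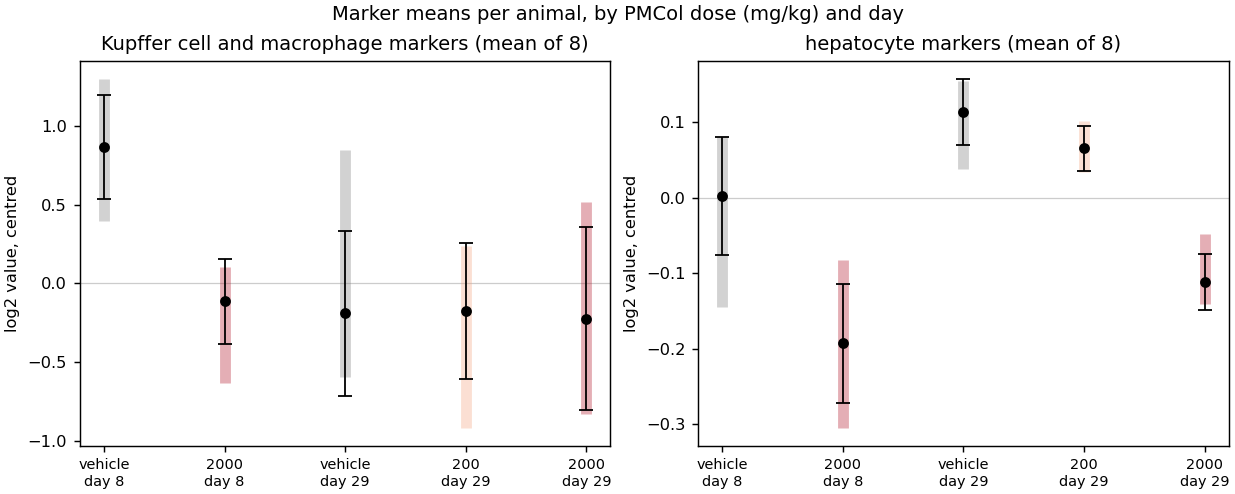
Mean log2 value per animal, centred, of 8 Kupffer cell and macrophage markers and of 8 hepatocyte markers, by PMCol dose in mg/kg and day. Points with whiskers are the group mean ± SD, and coloured bars run from the lowest to the highest animal. The macrophage mean is 0.87 on vehicle at day 8 and between -0.22 and -0.11 in the other 4 groups, and the hepatocyte mean is lowest in both 2000 mg/kg groups, at -0.19 and -0.11.

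The genes whose pattern was most like each of the 7 were found by Pearson's r over the 29 animals, among 15072 clusters with 1 non-provisional symbol. The animals share their treatment groups, so r describes the likeness of the patterns and is not a test. For Afm these were C8b (r = 0.955), encoding a complement component, and Lipc (r = 0.951). For Cyp4f4 they were Rnase4 (r = 0.929) and Pik3c2g (r = 0.906), and for Cyp4f1 they were Hsd3b5 (r = 0.917), a hydroxysteroid dehydrogenase, and Car3 (r = 0.911), a carbonic anhydrase. By Spearman's rho, Hsd3b5 ranked 96 for Cyp4f1 and Pik3c2g ranked 104 for Cyp4f4.

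For Sec14l2 the most alike were Eepd1 (r = 0.886) and Lrp2 (r = 0.878), an endocytic receptor. For Ttpa they were Nbr1 (r = 0.849), an autophagy receptor, and Marf1 (r = 0.843). For Scarb1 they were Ulk2 (r = 0.839), an autophagy kinase, and Ikzf5 (r = 0.826). For Abca1 they were Npc1 (r = 0.825) and Tpcn1 (r = 0.802), an endolysosomal channel. Among the 7 genes themselves, r was highest between Afm and Cyp4f4 (0.864) and lowest between Ttpa and Scarb1 (0.299).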

How the data were processed

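Labelled cDNA from the livers of 29 rats was read on Affymetrix whole-transcript arrays. The table that the authors deposited holds 27342 transcript clusters, read here as log2 values from their range and the array type, with a median of 0 in each row. PLIER and MAS5 are named, with neither role nor version, per the submitters' processing notes. How arrays were normalized is not given in the sources used here, nor is any offset before the log, which would shrink folds of dim genes. The rounding of the values places all 7 members among the 7768 clusters with stored values of 8 or more.

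Gene names came from the platform annotation, with a single symbol on 15097 clusters, more than 1 on 323 and no symbol on 11922. Of the clusters with 1 symbol, 15067 matched the RefSeq table (GRCr8).

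Comparisons were fitted with limma 3.58.1 in R 4.3.3 as 5 group means over 29 animals, with empirical Bayes moderation, two-sided p and Benjamini-Hochberg adjustment over all clusters (threshold 0.05), and were tested on simulated data. The members and lists were chosen with earlier results of these data known. Named were all members, up to 4 called genes of each list with the largest differences from vehicle in a comparison, and the 2 clusters most like each member. Alb, Sec14l3, Cyp4f40, Nr1h2, Hsd17b4 and values given beside a called gene at another day stand outside this rule and were named after their values were seen. The labels call the arrays biological replicates. The highest correlation between 2 arrays was 0.725. Alternatives were other normalizations, fits, filters and thresholds, and leaving out each animal. Plots used matplotlib 3.10.9.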

Additional observations from a re-analysis of the deposited data

Results flagged for a closer look

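For Scarb1, vehicle replicate 1 of day 29 lay at -0.35, apart from the other 5 vehicle animals of that day, which ran from 0.0066 to 0.16. Dixon's test was applied to 35 combinations of gene and group, of which chance flags about 1 in 20. For Cyp4f1, the effect of 2000 mg/kg differed between the days by 0.30 (limma, adjusted p = 0.0456).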

How the results depend on the processing

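For the 7 genes, 987 alternative values over 42 results were computed. Of these, 918 kept direction and side of the threshold, 46 lost a call, 2 gained one and 21 changed sign. Among the 356 values of the 16 called results, 46 lost the call and 0 changed sign. The sign changes under a changed setting were Scarb1 between the doses with array weights (-0.0023) and Abca1 between the doses with a replicate block (0.0043), neither of them called. The labels name no pairing of animals by replicate number, and 12 of 56 same-number pairs had a correlation over 0.1 (range -0.28 to 0.30). Their mean was 0.11 between vehicle at day 8 and 200 mg/kg at day 29, against -0.02 for other numbers. Between vehicle and 2000 mg/kg at day 29 it was -0.13, against 0.03. The replicate block changed no call of the 7 genes in the tested comparisons, and its counts of clusters (5008 at day 8 and 5964 at day 29 at 2000 mg/kg) lay close to 5096 and 5910.

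Besides the calls given with the results, Cyp4f1 between the days lost its call with quantile normalization (adjusted p = 0.0877), with array medians subtracted (0.0511) and with only the groups compared (0.0530). Ttpa between the doses passed among stored values of 8 or more (0.0406) and without 2000 mg/kg replicate 3 (0.0240). The number of the 7 genes called at 200 mg/kg was 1 with only the groups compared and 0 at an adjusted p of 0.01. Leaving out 1 animal gave 0 (vehicle replicate 3 or 200 mg/kg replicate 5) to 2.

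Counts of all clusters moved more. For the difference between the days (212), they were 102 with quantile normalization, 673 with array weights, 28 at 0.01 and 27 with the macrophage covariate, and ran from 76 (without 2000 mg/kg day 8 replicate 1) to 563 (without vehicle day 29 replicate 2). Between the vehicle groups (746), they were 136 with only the groups compared, 1773 with array weights, 77 at 0.01 and 12 with the covariate, and from 254 (without vehicle day 29 replicate 5 or 6) to 2141 (without replicate 2). At 200 mg/kg (761), they were 340 with only the groups compared and 277 at 0.01, and from 436 to 1102 (without 200 mg/kg replicate 5 or 1). Between the doses (2704), they were 1364 at 0.01 and from 1755 to 2813 (without 2000 mg/kg replicate 5 or 200 mg/kg replicate 6). At 2000 mg/kg, day 8 gave 3238 and day 29 gave 3545 of the 7768 clusters with stored values of 8 or more. These counts are smaller than 5096 and 5910 of 27342, but they are larger shares of the clusters tested. At 0.01, day 8 gave 3244 and day 29 gave 3754 of 27342. With the covariate 15 related genes passed at day 8. The cause of the other changes was not tested.

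Without 1 animal, differences that did not pass changed sign within these ranges. At 2000 mg/kg on day 29, Abca1 ran from -0.11 to 0.0021. At 200 mg/kg, Ttpa ran from -0.050 to 0.0046 and Abca1 from -0.089 to 0.026. Between the doses, Scarb1 ran from -0.015 to 0.047 and Abca1 from -0.069 to 0.0038. Between the days, the effects on Sec14l2 ran from -0.076 to 0.015 and on Cyp4f4 from -0.10 to 0.041. In vehicle animals Cyp4f1 ran from -0.0085 to 0.044. Another cluster of a gene could not be tried, since each had 1. Groups of 5 or 6 arrays limit what smaller differences could be called.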
